A study of Mus musculus with 15 samples.

Results

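The H3K27ac peaks at the starts of noncoding RNA genes were examined in 1 library of mouse fusion-positive rhabdomyosarcoma (FP-RMS), a muscle-like cancer of soft tissue in which a chromosome translocation joins PAX3 to FOXO1 (P3F). A peak belonged to this set when it overlapped, by at least 1 bp, the 2 kb on either side of a start site of a RefSeq noncoding (NR) transcript whose gene has no coding (NM) transcript, and when it overlapped no such window around a coding start. This rule gave 1826 of the 122375 peaks in the list (1.49%, Wilson 95% interval 1.43 to 1.56%), and they covered 610 kb. For comparison, 24898 peaks overlapped a coding start, of which 2016 also overlapped a noncoding start, and 95604 were distal to every start site.

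The tumor came from an MCP mouse, whose alleles were Myf6-Cre, Cdkn2a(Flox/Flox), the fusion allele given as Pax(3P3F/P3F), and R26-tdTom. Cre expressed from Myf6, a myogenic regulatory factor, deleted Cdkn2a, switched on P3F and labelled the cells with tdTomato, so the model starts from myogenic cells. The library, MCP H3K27ac replicate 5, was made by CUT&RUN, in which an antibody brings a nuclease to chromatin and the released fragments are sequenced. Its peaks were called against an IgG library, which gives the background. Tumors of TCP mice, in which Tek-Cre acts in endothelial cells, and the other MCP libraries were not analyzed here. With 1 peak list there are no replicates. No p-value was computed, and the intervals given cover counting error only. In bulk chromatin, a mark in few cells and a weak mark in many cells cannot be told apart.

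Acetylation of lysine 27 on histone H3 (H3K27ac) marks nucleosomes at active promoters and enhancers. Long noncoding RNAs (lncRNAs) are mostly transcribed by RNA polymerase II from promoters like those of coding genes, and some act in the nucleus while others only carry smaller RNAs in their introns. MicroRNAs (miRNAs) are cut as hairpins from longer primary transcripts, and small nucleolar RNAs (snoRNAs) are mostly released from introns of host genes. The annotated start of a hairpin or of a snoRNA is therefore an end made by processing, and the promoter of its primary transcript can lie elsewhere.

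To show what the sequence under these peaks looked like, up to 150 bases around the summit of the peak with the highest fold enrichment are given for each class of RNA. Each peak was counted only to the class of the noncoding start nearest to its summit. Fold enrichment compares the fragments at the summit, scaled by a factor of 0.885 solved from the list, with the local IgG background, after 1 is added to both. The peaks at C920006O11Rik and Mir206 were added after their values were seen, as a CpG-rich peak and as the peak of the only muscle miRNA in the set. The sequences are from GRCm38.p6 (mm10), on the plus strand, with each CpG in capitals.
3830432H09Rik (lncRNA, chr1:119536023-119536172): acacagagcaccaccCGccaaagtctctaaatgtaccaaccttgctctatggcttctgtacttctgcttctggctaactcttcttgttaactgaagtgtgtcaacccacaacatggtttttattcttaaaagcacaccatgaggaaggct
C920006O11Rik (lncRNA, chr9:78175965-78176114): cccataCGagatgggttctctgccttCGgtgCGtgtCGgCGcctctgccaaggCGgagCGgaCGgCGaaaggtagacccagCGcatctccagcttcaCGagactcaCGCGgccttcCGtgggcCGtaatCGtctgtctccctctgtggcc
Mir199a-2 (miRNA, chr1:162218105-162218254): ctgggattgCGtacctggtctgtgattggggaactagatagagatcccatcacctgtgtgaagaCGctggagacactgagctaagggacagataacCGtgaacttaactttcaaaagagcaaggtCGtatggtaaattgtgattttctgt
Mir206 (miRNA, chr1:20679143-20679240): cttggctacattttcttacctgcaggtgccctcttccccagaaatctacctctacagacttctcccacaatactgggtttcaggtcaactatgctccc
Gm20257 (transcribed pseudogene, chr1:58653241-58653390): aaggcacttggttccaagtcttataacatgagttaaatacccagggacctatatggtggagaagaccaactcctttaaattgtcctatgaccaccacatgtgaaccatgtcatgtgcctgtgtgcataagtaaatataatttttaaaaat
Snord104 (snoRNA, chr11:106501358-106501507): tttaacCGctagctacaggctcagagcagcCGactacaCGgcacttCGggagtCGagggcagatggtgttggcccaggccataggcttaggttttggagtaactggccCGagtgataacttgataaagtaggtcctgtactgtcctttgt
Rnu2-10 (small nuclear RNA, chr11:101657843-101657992): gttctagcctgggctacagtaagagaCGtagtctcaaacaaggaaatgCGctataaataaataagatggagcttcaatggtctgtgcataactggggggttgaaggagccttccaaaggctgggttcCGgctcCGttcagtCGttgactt
Rny1 (Y RNA, chr6:47788494-47788643): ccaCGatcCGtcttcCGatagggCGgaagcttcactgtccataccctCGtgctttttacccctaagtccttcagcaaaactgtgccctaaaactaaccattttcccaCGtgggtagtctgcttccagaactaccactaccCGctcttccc

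The 150 bases at C920006O11Rik held 16 CpGs and were 64.7% G or C. Those at 3830432H09Rik held 1 CpG and those at Gm20257 none, with 44% and 37.3% G or C, although the fold enrichment of all 3 peaks was close to 20. The Mir206 peak also held no CpG. Strong peaks at noncoding starts thus lay in CpG-dense and in CpG-poor sequence.

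For the miRNA genes with a peak, mature sequences from the RefSeq table (GRCm38.p6) show which targeting seeds were represented. The table held a mature sequence for 1058 of the 1228 miRNA genes. The seed, bases 2 to 8, is in capitals, and miRNAs that share it are placed together.
let-7b-5p: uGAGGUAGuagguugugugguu
let-7i-5p: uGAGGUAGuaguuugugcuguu
let-7e-5p: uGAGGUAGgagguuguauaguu
miR-29a-3p: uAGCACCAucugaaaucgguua
miR-29b-3p: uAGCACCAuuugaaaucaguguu
miR-17-5p: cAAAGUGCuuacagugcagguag
miR-20a-5p: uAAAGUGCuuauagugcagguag
miR-27a-3p: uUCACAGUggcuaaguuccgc
miR-27b-3p: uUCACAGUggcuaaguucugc
miR-199a-5p: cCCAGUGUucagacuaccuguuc
miR-214-3p: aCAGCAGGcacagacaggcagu
miR-30a-5p: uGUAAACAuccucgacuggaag
miR-155-5p: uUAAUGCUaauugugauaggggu
miR-21a-5p: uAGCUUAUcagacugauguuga
miR-206-3p: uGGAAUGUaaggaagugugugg

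The let-7 seed GAGGUAG was the seed carried by the most miRNA genes with a peak, at 8 of the 13 genes with it in the table, against 15.4% of all hairpins. These are not 8 separate loci, since Mirlet7f-1 shares all 4 of its peaks with Mirlet7a-1 and Mirlet7c-2 all 7 of its peaks with Mirlet7b. The miR-27 seed UCACAGU was carried by 2 genes, Mir27a and Mir27b, and both had a peak. The miR-29 seed AGCACCA had a peak at Mir29a and Mir29b-1 and none at Mir29b-2 and Mir29c, so 2 of 4 genes were marked. Of the 7 genes with the miR-17 seed AAAGUGC, only Mir17 and Mir20a had a peak, and they share it. Copies of 1 seed from separate loci therefore differed in whether a peak lay at the hairpin.

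At least 1 of these peaks lay at 774 of 5180 noncoding genes, which is 14.9% (14.0 to 15.9%). A peak of any kind, including peaks shared with a coding start, lay at 1437 noncoding genes (27.7%), against 9562 of 21000 coding genes (45.5%). Among the marked genes, 274 had 1 peak, 391 had 2 to 4, and 109 had 5 or more, up to 10. Because windows of neighboring genes overlap, 130 of the peaks (7.12%) touched more than 1 noncoding gene.

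The share of marked genes differed between RNA classes. For lncRNA genes it was 14.9% (494 of 3318, 13.7 to 16.1%) and for miRNA hairpins 15.4% (189 of 1228, 13.5 to 17.5%), both near the share of all noncoding genes. Transcribed pseudogenes, which are copies of other genes that still give RNA, lay below it at 7.84% (33 of 421, 5.64 to 10.8%). Genes of snoRNAs, which guide the modification of ribosomal RNA, lay above it at 32.6% (44 of 135, 25.3 to 40.9%). Genes that RefSeq classes as small nuclear RNA (snRNA) had a peak at 9 of 18 (50%, 29.0 to 71.0%). Of these only Rnu1a1, Rnu2-10 and Rnu5g encode RNAs of the spliceosome, while Rnu3b1, Rnu3b2, Rnu3b3, Rnu3b4 and Snord73b are snoRNA genes and Rn7sk encodes the 7SK RNA. The rule also drops peaks in coding windows, which lowers the share of classes with many starts near coding starts. Among genes beyond 4 kb of a coding start it was 19.5% for lncRNAs (445 of 2283, 17.9 to 21.2%). There it was 16.4% for hairpins (164 of 999, 14.2 to 18.8%), 41.1% for snoRNAs and 8.29% for pseudogenes, against 18% of all noncoding genes. Genes of 1 snoRNA host lie close together and share peaks, and snRNA genes and pseudogenes have near-identical copies to which reads can be misplaced, so their shares are less certain than the intervals. How much of the difference between classes comes from these features was not tested.

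Of the peaks themselves, 1262 (69.1%) were nearest to a lncRNA start and 392 (21.5%) to a hairpin. Transcribed pseudogenes had 71, snoRNAs 73, snRNAs 17 and other RNAs 11. Most were nearest to a start outside coding genes (1200 peaks, 65.7%), while 336 were nearest to a start inside a coding gene on its other strand and 290 to one inside a coding gene on its own strand. By position of the summit, 562 peaks (30.8%) lay outside genes, 505 in an intron of a coding gene, 470 in an intron of a noncoding gene, 240 in a noncoding exon and 49 in a coding exon.

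The share of noncoding genes with a peak varied with distance to a coding start. A peak of any kind lay at 59.0% of the 1140 noncoding genes that start within 2 kb of a coding start (56.2 to 61.9%), but most of these peaks overlap the coding window too, and only 5% of these genes had a peak of the set. The share with a peak of any kind was 34.6% of 231 genes at 2 to 4 kb and 22.4% of 1023 genes at 4 to 20 kb (19.9 to 25.0%). It was 19.4% of 1611 genes at 20 to 100 kb (17.5 to 21.4%) and 12.2% of 1175 genes beyond 100 kb (10.4 to 14.2%). Beyond 4 kb the noncoding and coding windows no longer overlap, and 684 of 3809 genes (18%, 16.8 to 19.2%) had a peak there. For peaks of any kind the share was thus highest within 2 kb of a coding start and lowest beyond 100 kb. The high share within 2 kb includes peaks of the coding start itself. For peaks of the set the share was 5% within 2 kb, 14.3% at 2 to 4 kb and 22.4% at 4 to 20 kb. The first 2 values are lowered by the rule, which excludes peaks in coding windows.

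**Figure D1:**
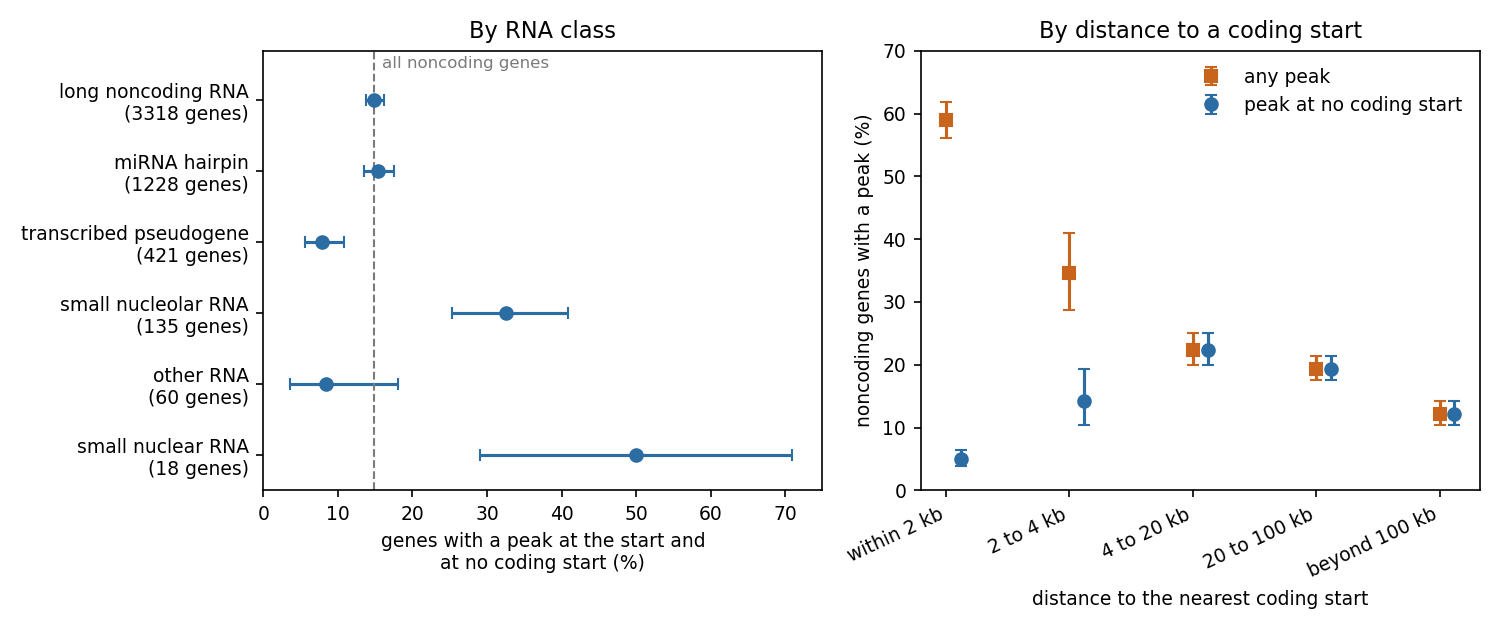
Share of noncoding genes with an H3K27ac peak at their start in the MCP library, by RNA class (left) and by distance of their start to the nearest coding start (right, in kb). Points are percentages with Wilson 95% intervals and the dashed line of the left panel is the share of all noncoding genes with a peak of the set (14.9%). In the right panel squares stand for any peak (27.7% of all noncoding genes) and circles for peaks of the set. Small nucleolar and small nuclear RNA genes lie to the right of the line, and the share with any peak falls from 59.0% within 2 kb to 12.2% beyond 100 kb.

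For noncoding genes within 2 kb of a coding start, the orientation of the pair was examined, since divergent promoters give a coding and a noncoding RNA in opposite directions. A peak shared by both starts lay at 362 of 606 divergent genes (59.7%, 55.8 to 63.6%), whose starts were a median of 156.5 bp from the coding start. It lay at 113 of 170 genes on the same strand (66.5%, 59.1 to 73.1%) and at 194 of 364 in other arrangements (53.3%, 48.2 to 58.4%). The intervals of divergent and same-strand pairs overlapped.

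The strength of the peaks at noncoding starts lay between that of peaks at coding starts and that of distal peaks. Their median fold enrichment was 5.22 (quartiles 4.36 and 6.53, range 2.29 to 20.3), against 5.55 at coding starts and 5.11 at distal sites. Where -log10 q reached 5 or more the difference from coding starts was not distinguished from 0 (-0.175, with bounds of -0.307 and 0.243 from the intervals of both medians). Of the noncoding set, 538 peaks (29.5%) were in the strongest 25% of the whole list by -log10 q, the caller's p-value adjusted for multiple testing, against 36% of the coding and 22.6% of the distal peaks. Median width was 175.5 bp (quartiles 103 and 368 bp), 184 bp at coding starts and 159 bp at distal sites. Peaks over 1 kb wide made up 6.79% of the noncoding set, 4.54% of the coding and 4.74% of the distal peaks. Because an overlap of 1 bp was enough, wide peaks could enter the noncoding and coding sets by their edge. In the noncoding set the 88 peaks with a summit beyond 2 kb of the nearest noncoding start had a median width of 443 bp. Their median fold enrichment was 6.30. How far such peaks raise the share over 1 kb was not tested. The direction of the width difference from coding starts was not stable, because at a -log10 q of at least 5 the noncoding peaks were wider by 38 bp at the median.

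These values rest on few fragments. The number over each summit was recovered from the fold enrichment and p-value columns, and the median peak of the noncoding set had 13, for a Poisson error of 27.7% of the value. Summits with under 20 fragments made up 80.1% of the set. The lowest IgG background of the list, 1.05 fragments, applied at 798 of these peaks (43.7%), so that equal fragment numbers gave equal fold enrichment. Peaks just inside the limit of the rule, with their nearest edge 1.8 to 2 kb from a noncoding start, had a median fold enrichment of 5.13 (135 peaks). Those with their nearest edge 2 to 2.2 kb away had 5.22 (131 peaks).

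**Figure D2:**
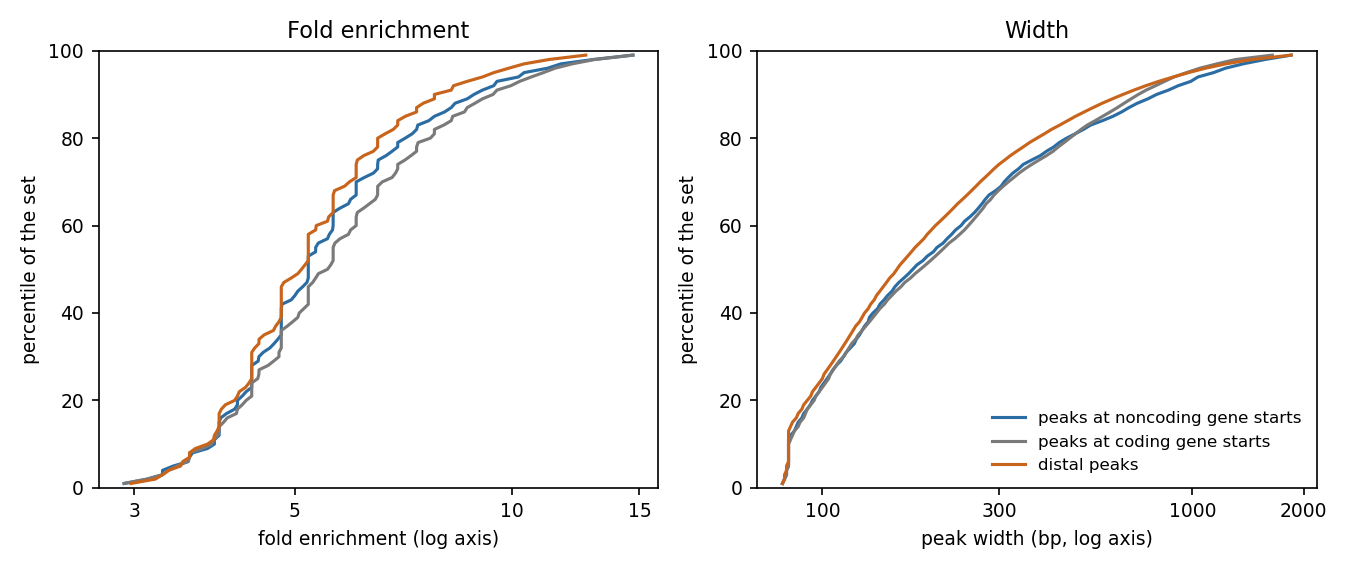
Fold enrichment (left) and width in bp (right) of the peaks at noncoding starts, at coding starts and at distal sites, as percentiles 1 to 99 of each set, on log axes. The noncoding curve for fold enrichment runs between the other sets at the median (5.22 against 5.55 and 5.11), and the steps come from whole numbers of fragments.

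Next, the position of the summits relative to the nearest start was compared between classes, because H3K27ac at a promoter lies on the nucleosomes beside the start site. Within 500 bp of the start lay 34.8% of the summits nearest to a lncRNA (32.2 to 37.5%), 35.5% of those at coding starts (34.9 to 36.1%) and 23.0% of those nearest to a hairpin (19.1 to 27.4%). The lncRNA summits were densest in the 250 bp just downstream of the start, with 10.9% of the peaks. The coding summits were densest at 500 to 750 bp downstream (14.0%). The summits at hairpins showed no such maximum, with 4.08 to 7.65% in each 250 bp step from 2 kb upstream to 2 kb downstream. Upstream of the start lay 44.7% of all summits in the noncoding set (42.5 to 47.0%) and 35.3% at coding starts (34.7 to 35.9%).

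Sequence rich in CpG, a feature of many promoters, was less frequent at noncoding than at coding starts. CpG-rich here means at least 50% G or C and at least 0.6 of the expected CpGs in the 300 bp around the summit. Of the noncoding set 93 peaks met this (5.09%, 4.18 to 6.2%), against 17.4% of the coding (17.0 to 17.9%) and 0.467% of the distal peaks. The share fell with distance from the noncoding start, from 12.3% of peaks with a summit within 250 bp (9.12 to 16.5%) to 1.87% at 1 to 2 kb (1.10 to 3.17%). CpG-rich and other peaks of the noncoding set had the same median fold enrichment of 5.22. By class, 5.71% of the lncRNA peaks and 2.04% of the hairpin peaks were CpG-rich (4.55 to 7.12% and 1.04 to 3.97%).

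**Figure D3:**
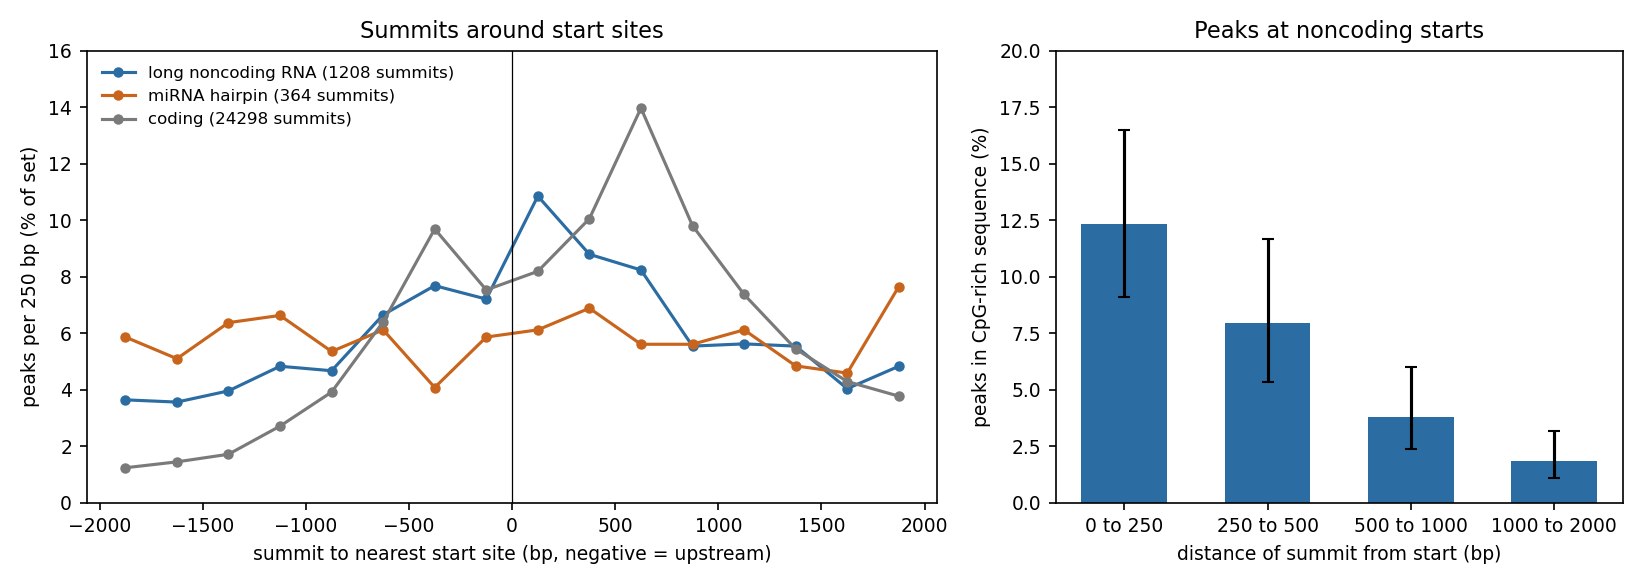
Left, position of peak summits relative to the nearest start site in bp, as the percentage of each set in steps of 250 bp, for lncRNA starts, miRNA hairpins and coding starts. Right, percentage of the noncoding set in CpG-rich sequence by distance of the summit from the start in bp, with Wilson 95% intervals. The lncRNA profile is highest just downstream of the start (10.9%), the hairpin profile is flat, and the CpG-rich share falls from 12.3% to 1.87%.

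Motifs of factors of interest were counted in the 300 bp around each summit, on both strands, by exact letters. The E-box CAGCTG, which the myogenic factor MYOD binds, was in 16.2% of the noncoding set (14.6 to 18%), 13% of the coding and 15% of the distal peaks. The interval of the noncoding set covered the distal share but not the coding share. The AP-1 motif, TGACTCA or TGAGTCA, was in 9.15% (7.91 to 10.6%), between 5.13% at coding starts and 11.1% at distal sites. The noncoding set also lay between the others for the GC box GGGCGG, with 8.49% (7.30 to 9.86%) against 16.8% and 4.15%. The ETS motif CCGGAAG was in 2.41% against 4.73% and 1.4%, and the TATA box TATAAA in 16% against 13.9% and 21.3%. For the CCAAT box (CCAAT) the share was 30.5%, and its interval (28.4 to 32.7%) covered the 30.9% at coding starts and the 31.7% at distal sites. The E-box CACGTG was in 4.65%, 4.74% and 3.50%, and the CTCF core CCCCCTNG in 2.52%, 3.57% and 2.13%. The paired-domain core GTCACGC, part of the sequence that PAX3 binds, was in 17 peaks of the set (0.931%, 0.582 to 1.49%), 1.28% of the coding and 0.745% of the distal peaks. A match describes the sequence and is not evidence of binding. None of these strings holds another one whole, but shares of different motifs can come from the same peaks.

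**Figure D4:**
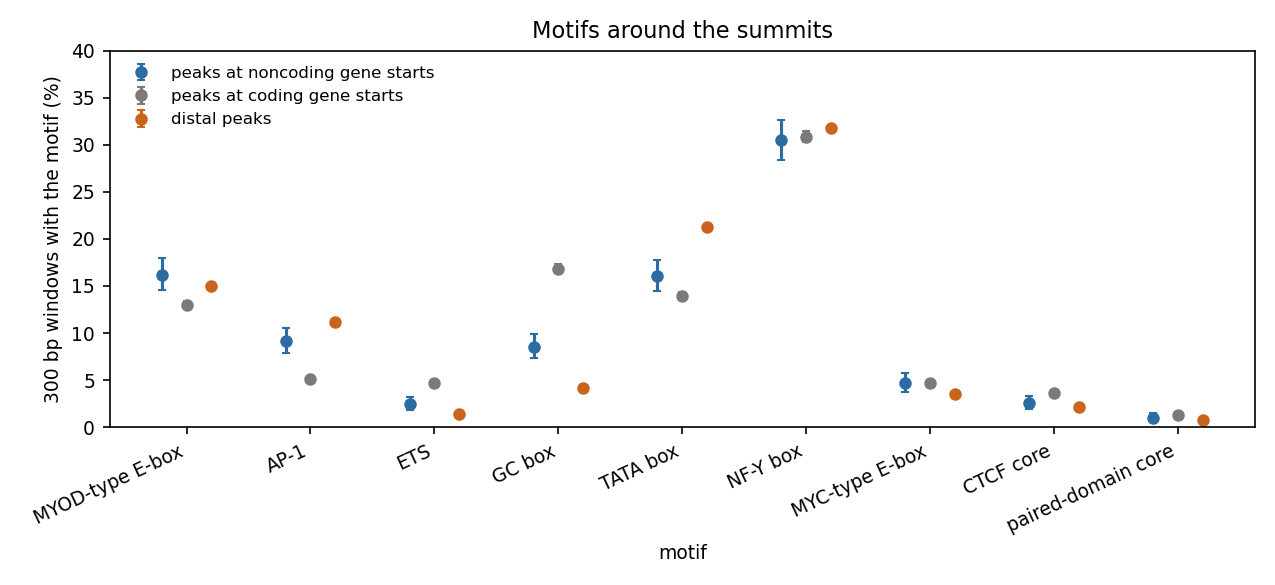
Percentage of 300 bp windows around peak summits that hold each motif on either strand, in the peaks at noncoding starts, at coding starts and at distal sites, with Wilson 95% intervals. For the AP-1, ETS, GC box and TATA box motifs the noncoding set lies between the coding and the distal sets, and for the NF-Y (CCAAT) box all 3 lie close together at 30.5 to 31.7%.

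Among the single peaks, the highest fold enrichment was 20.3 at the pseudogene Gm20257, with 54 fragments (exact Poisson interval 40.6 to 70.5) and a width of 2378 bp. The lncRNA 3830432H09Rik followed with 19.9 and 45 fragments (32.8 to 60.2), its summit 68 bp downstream of the start. The intervals of these peaks and of the next ones overlap, so their order is not fixed. Of the 15 strongest peaks 11 were nearest to a lncRNA, 2 to a hairpin, 1 to a pseudogene and 1 to a Y RNA, and all were at least 596 bp wide.

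The third strongest peak lay between 2 starts. Its summit was 125 bp downstream of the start of the lncRNA C920006O11Rik and 406 bp upstream of Rn7sk, the 7SK RNA that holds the elongation factor P-TEFb inactive. Fold enrichment was 19 with 43 fragments (31.1 to 57.9), width 1298 bp, and no other peak summit lay within 12.5 kb. The sequence printed above shows its CpG density. The peak at Rny1, a Y RNA transcribed by RNA polymerase III, had the most fragments of the set, 68 (52.8 to 86.2), at a fold enrichment of 15.3 over a higher background of 3.00. Rnu2-10, a gene of the U2 RNA of the spliceosome, had a peak of 652 bp with 47 fragments and a fold enrichment of 14.2. Rn7sk, Rny1 and Rnu2-10 belong to families with many copies in the genome, so these peaks may include reads from other copies.

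Of the other strongest peaks, 2 lay in the X inactivation center. Jpx, a lncRNA that activates Xist, and Ftx, another positive regulator of Xist, each had a peak with 39 fragments (27.7 to 53.3) and a fold enrichment of 17.3, 1225 and 1181 bp wide. The summit lay 527 bp downstream of the start at Jpx and 1933 bp downstream at Ftx. Jpx had 2 further peaks of 11.2 and 4.79, and Ftx had 4 closer to its start, between 3.93 and 6.08. Xist itself, which coats the inactive X chromosome, had a single peak of 99 bp at 972 bp downstream, with 17 fragments and a fold enrichment of 5.35. Tsix, its antisense RNA, had none. Within this region the strong marks thus lay in the windows of Jpx and Ftx, at Ftx near the downstream limit of the window.

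The other 6 lncRNAs among the strongest peaks are known only by locus names. Gm12925, inside the coding gene Macf1 on its other strand, had a CpG-rich peak of 596 bp with 39 fragments and a fold enrichment of 17.3. Gm35202, Gm10433, E030011O05Rik, 5930430L01Rik and 5830428M24Rik had peaks of 1209 to 1320 bp with 35 to 40 fragments and fold enrichment of 15.1 to 16.4, none of them CpG-rich. In all 6 the summit lay upstream of the start, at positions from -1017 to -267 bp. The peaks at Gm12925, E030011O05Rik and 5930430L01Rik lay within 2 kb of a coding start in GENCODE, so they would leave the set if those starts were excluded too.

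The 4679 bp peak at Mir199a-2 was the second widest of the set, with a fold enrichment of 18.1 and 46 fragments (33.7 to 61.4). It spans the starts of Mir199a-2 and of Dnm3os, the host RNA of miR-199a and miR-214 that runs opposite to Dnm3, with its summit 556 bp downstream of the Dnm3os start. Mir214, further along the same RNA, was touched by the end of this peak and by 7 others with fold enrichment from 3.28 to 6.94. The nearest coding start was 239 kb away. The widest peak of the set, 6047 bp with a fold enrichment of 10.6 and 47 fragments (34.5 to 62.5), lay at Mir6896 inside the coding gene Dst, which encodes the cytoskeletal linker dystonin, and its summit was 4000 bp downstream of the hairpin. Mir30a, of a family that shares the seed GUAAACA, had the third widest, 3523 bp with a fold enrichment of 16.1 and 41 fragments (29.4 to 55.6), 110 kb from any coding start and in sequence with 29% G or C. Gm52877 and Gm32211 had the next widest, 3061 and 3028 bp. The 3 widest peaks at hairpins thus lay 38.9 to 239 kb from a coding start.

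Known noncoding genes were then taken by function. Of 32 nuclear and growth-related lncRNAs 19 had a peak of the set, against 14.9% of all noncoding genes. These genes were picked as known ones and not at random, and they are more often well annotated, so the shares are a description. Malat1, of nuclear speckles, had 5 peaks, the strongest with 20 fragments (12.2 to 30.9) and a fold enrichment of 7.77, 552 bp upstream of the start. Neat1, which builds paraspeckles, had 3, up to 6.82 with 22 fragments, and numbers are missing from the peak list in its window. Pvt1, a neighbor of Myc, had a peak of 1858 bp with 42 fragments (30.3 to 56.8) and a fold enrichment of 12.7, with its summit 181 bp upstream of a start. Morrbid, a regulator of the death gene Bcl2l11 in myeloid cells, had 8 peaks from 3.12 to 11.1. Jpx, Ftx, Pvt1, Morrbid and Rn7sk were the only genes of this group above 10.

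The others of the group had weaker peaks. Dancr and Dleu2, the host of miR-15a and miR-16-1, reached 8.24 with 18 fragments each. Lncpint, a target of p53, had 7 peaks, all between 3.99 and 6.04. Trp53cor1, known as lincRNA-p21 and also induced by p53, had 1 peak of 3.93 with 8 fragments. The imprinted RNAs differed: Meg3 had 1 peak of 6.08 and Kcnq1ot1 2 with at most 4.79, whereas H19, Airn, Rian and Mirg had none. Hotair and Hottip of the Hox clusters, Rmst, Miat, Rmrp and the telomerase RNA Terc had none either. Tug1 and Rpph1 had 2 peaks each that also overlapped a coding start and so are outside the set. An absent peak means that none passed the caller's threshold, not that the mark was absent. Gt(ROSA)26Sor, the locus that carries the tdTomato allele, had 1 peak of the set, 5.34 with 23 fragments, and 3 shared with a coding start.

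Host genes of snoRNAs, whose introns give the snoRNAs, were marked at 14 of 21, and at 18 of 21 when peaks shared with a coding start are counted (all noncoding genes: 14.9% and 27.7%). Snhg15 had the strongest peak, 16.8 with 49 fragments (36.3 to 64.8), 1448 bp wide and 652 bp downstream of the start. Snhg3 reached 9.96 and Snhg17 7.27. Snhg7 and Snhg6 had more fragments than most of the set, 29 and 28, over a higher background, with fold enrichment of 6.66 and 6.44. Gas5, a growth-arrest RNA, had 5 peaks, of which 4 overlapped the coding window beside it. Snhg11, Snhg14 and Snhg18 were the hosts without any peak. Peaks in this group thus lay at most of its genes and were mostly moderate in strength.

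Of 45 miRNAs tied to cancer and growth, 28 had a peak of the set (62.2%, 47.6 to 74.9%), against 14.9% of all noncoding genes and 15.4% of all hairpins. Because clustered hairpins share peaks, these are not 28 separate observations. A single weak peak of 131 bp with 9 fragments and a fold enrichment of 4.36 lay upstream of the Mir17hg cluster and accounted for 7 of the genes touched, the host and the hairpins Mir17, Mir18, Mir19a, Mir20a, Mir19b-1 and Mir92-1. The numbering of the peak list has a gap in these windows too, so a further peak may have been there. In the same way Mir23a, Mir27a and Mir24-2 shared 1 peak of 3.93 with 8 fragments. The strongest independent ones besides Mir199a-2 were Mir155, an immune miRNA, with a 742 bp peak of 12.1 and 27 fragments, and Mirlet7i, with 10.4 and 23 fragments. The summit of the Mir155 peak lay 2426 bp downstream of the hairpin start, so this peak is in the set only through its edge. Mir155hg, the annotated host of Mir155, had no peak.

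Some hairpins had many peaks. Mirlet7b had 10, with fold enrichment from 2.68 to 7.78 and at most 19 fragments, spread from 1821 bp upstream to 2005 bp downstream. Mirlet7b shares most of its region with Mirlet7c-2, which had 7. Mir29a and Mir29b-1, which lie so close that they share all 8 of their peaks, reached 8.38 with 32 fragments (21.9 to 45.2). Mir21a had 5 peaks between 3.21 and 7.09. Mir22 had 4, and its host Mir22hg 5, up to 5.77 with 38 fragments over a high background. The peaks of 110, 116 and 146 bp were counted to both. No peak lay at Mir34a, Mir34b and Mir34c, which p53 induces, or at Mir143, Mir145a, Mir221, Mir222 and Mir126a, which are known from smooth muscle and endothelium among others.

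Of 14 genes listed as miRNA hosts, which include the hairpin Mir6236, 6 had a peak (42.9%, 21.4 to 67.4%), against 14.9% of all noncoding genes. Mir100hg, the host of miR-100, let-7a-2 and miR-125b-1, had 10 peaks at its 3 annotated starts, the most of any lncRNA in the set, and its strongest was 1599 bp wide with a fold enrichment of 14.0 and 32 fragments (21.9 to 45.2). Its hairpin Mirlet7a-2 had none at its own start, whereas Mir125b-1 had 7, up to 9.53 with 21 fragments. A host start and its hairpins were thus not always marked together.

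Muscle miRNAs were looked at because FP-RMS expresses a myogenic program. Of 11 genes only Mir206 had a peak (14.9% of all noncoding genes did), 98 bp wide with 14 fragments (7.65 to 23.5) and a fold enrichment of 6.51, 179 bp downstream of the hairpin. Mir133b, which is cut from the same region, had none, nor had Mir1a-1, Mir1a-2, Mir1b, Mir486, Mir133a-1, Mir133a-2, Mir208a, Mir208b or Mir499. With 1 of 11 the interval runs from 1.62 to 37.7%, so a share equal to that of all noncoding genes is not distinguished. Of 5 lncRNAs with known roles in myogenesis Malat1, Neat1, Meg3 and Lncpint had peaks, with fold enrichment of 6.04 to 7.77, and H19 had none (80%, 37.6 to 96.4%, against 14.9% of all noncoding genes). These genes are also in the nuclear and growth-related list.

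**Figure D5:**
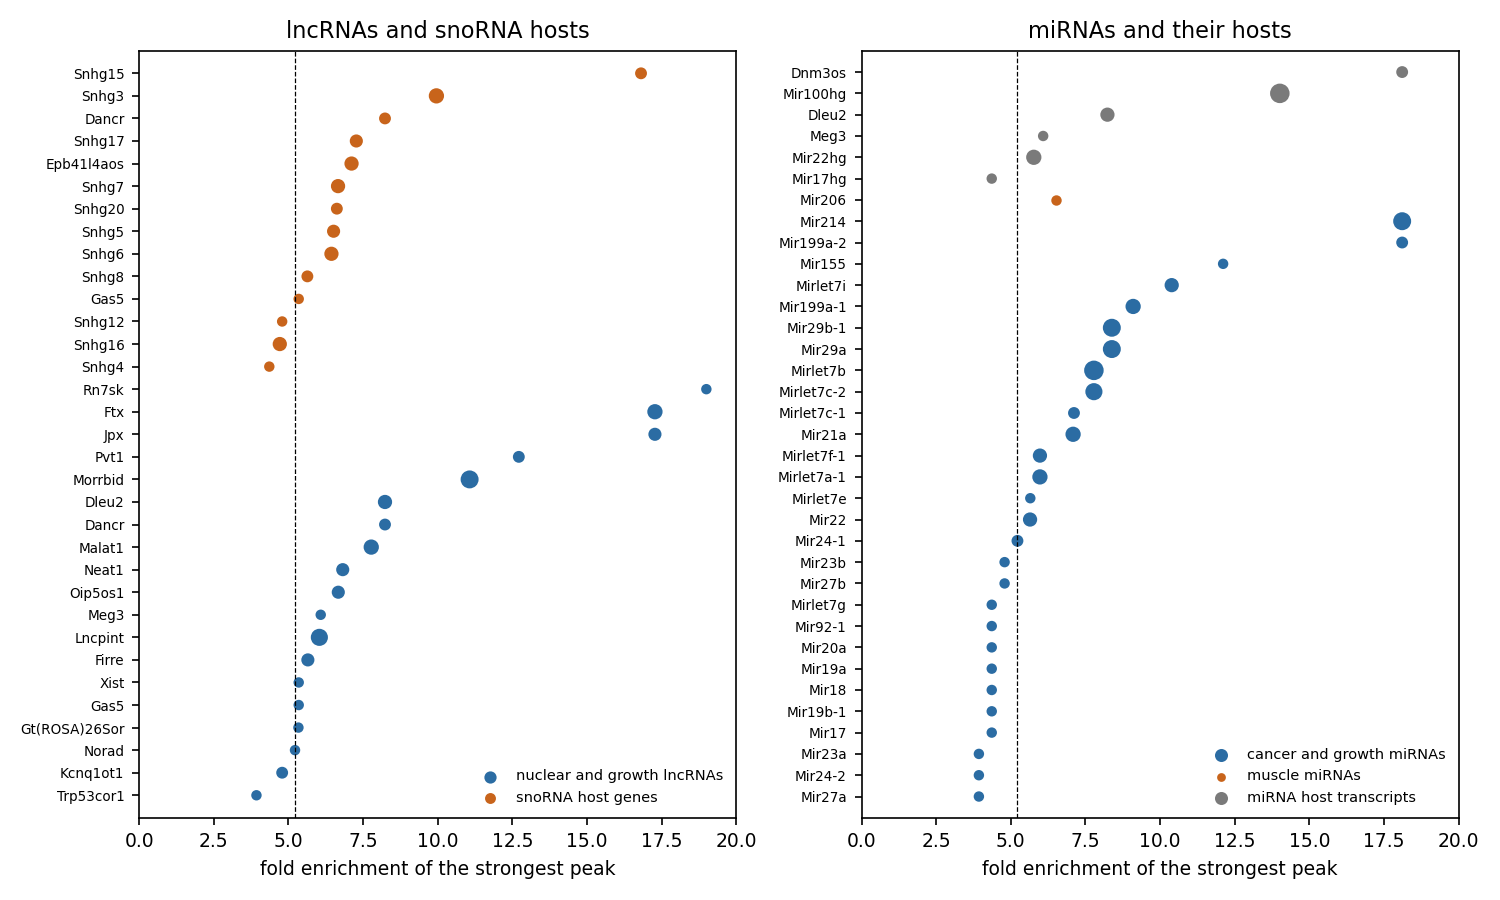
Fold enrichment of the strongest peak of the set at each listed gene that had one, with lncRNAs and snoRNA hosts on the left and miRNAs and their hosts on the right. Larger points stand for more peaks at the gene, up to 10, and the dashed line is the median of the set (5.22). Rn7sk, Ftx, Jpx, Snhg15, Dnm3os, Mir199a-2 and Mir214 lie above 16, and the latter 3 share 1 peak.

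Other genes with many peaks were less well known. Gm32211, 3300002A11Rik, Gm19557 and Gm16104 had 9 each, with the strongest at 10.6, 9.28, 8.67 and 9.53. The strongest peaks at Gm32211 and Gm19557 had summits 3395 and 2053 bp downstream of the start, so they are in the set only through their edges. At Gm16104 the value of 9.53 was reached by peaks with summits 2003 and 1663 bp upstream. A peak of the noncoding set had a median of 7 other summits within 12.5 kb, as distal peaks did, and a peak at a coding start 5. Chromosome 11 held 184 of the peaks, the most of any chromosome, at 22.6% of its noncoding genes (18.5 to 27.2%), and chromosome 1 held 169, at 21% (16.8 to 26%). Chromosome X held 45, at 9.46% of its noncoding genes (6.27 to 14.0%), and these include the strong peaks at Jpx and Ftx. As a share of all peaks on the chromosome the order differed, with 2.64% on X (1.98 to 3.52%), 1.90% on chromosome 11 (1.64 to 2.19%) and 1.42% on chromosome 1 (1.23 to 1.65%), against 1.49% over the whole list.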

How the data were processed

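The authors made CUT&RUN libraries from dissociated tumor cells, mapped reads to mm10 and called peaks against IgG. The study's methods name MACS1.4 for this step, but the file is named after MACS2, and the submitters' processing notes list BWA, SAMtools and MACS2, so the exact settings are not known. The 1 deposited peak list was assigned to MCP H3K27ac replicate 5 by the library number in its peak names. The deposited columns used were a score (10 times -log10 q, whole part), a fold enrichment (ratio of scaled summit fragments to local background, with 1 added to both) and -log10 p and -log10 q values. All were used as deposited to describe and rank peaks. Fragment numbers were solved from fold enrichment and -log10 p with 1 scaling factor. Within a tolerance of 0.002 all but a few peaks gave a whole number, and with a factor 3% off 0.150% did. They are inferred and not read counts. Peak numbers run to 122959, and 584 are absent. Gaps in the numbering touch the windows of 154 noncoding genes, including Neat1, Snhg8, Snhg10 and the Mir17hg cluster. These peaks were not analyzed here.

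Start sites (31601), RNA classes and sequences came from RefSeq on GRCm38.p6, and GENCODE coding starts served as an alternative. Calculations used Python 3.11.15, pandas 2.3.3, SciPy 1.17.1 and pysam 0.24.0, and functions were tested on simulated data. Shares have Wilson 95% intervals and fragments exact Poisson intervals. The members and gene lists were chosen with earlier results of these data known. Genes were named when they were in a list, nearest to 1 of the 15 strongest or 5 widest peaks, or among the 10 genes with the most peaks. Rnu2-10 and Snord104 are named as the strongest peaks of their classes when each peak is counted only to the noncoding start nearest to its summit. The other snRNA genes with a peak and Mir125b-1 were named after their values were seen. Listed names without a RefSeq entry under that name were left out (Cyrano, Mir142hg, Mir143hg, Mir670hg, Mirlet7bhg, Lncmd1, Mir486a, Mir486b, Charme and Munc). RefSeq may hold some of these genes, also measured ones, under other names. Sra1, which has a coding transcript, was left out too. Alternatives were a 1 kb window, the summit in place of the peak, a -log10 q of at least 5, GENCODE coding starts, transcripts of at least 200 nt, and leaving out chromosomes 1, 6 and 11.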

Additional observations from a re-analysis of the deposited data

How the results depend on the processing

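No sample could be left out. No paired analysis was possible because only 1 library entered, so no groups share a replicate number. Of 36 pairs of a result and an alternative, 22 stayed within the counting interval, 12 left it and 2 changed sign. The share of the list at noncoding starts was 1.11% with a 1 kb window, 1.57% at a -log10 q of at least 5, 1.39% with GENCODE coding starts excluded too and 1.13% with transcripts of at least 200 nt. The share of noncoding genes with a peak was 10% at a -log10 q of at least 5, 13.9% with GENCODE coding starts and 13.6% without chromosomes 1, 6 and 11. At a -log10 q of at least 5 the median fold enrichment was 6.51, as the filter removes weak peaks, and the difference from coding starts was -0.175 (bounds -0.307 and 0.243), against -0.330 in the whole list and -0.430 with a 1 kb window. The CpG-rich share was 7.12% with a 1 kb window and 6.51% at a -log10 q of at least 5. The difference in median width, -8.5 bp, became 38 bp at a -log10 q of at least 5 and 3 bp without chromosomes 1, 6 and 11, and the cause was not tested. Among the noncoding set 130 peaks (7.12%) lay within 2 kb of a GENCODE coding start. The few fragments per summit limit the order of single peaks, and a gene without a peak may be marked below the caller's threshold.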
